A study of Homo sapiens with 2 samples.

Results

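Proteoglycans are proteins that carry long sulfated sugar chains, the glycosaminoglycans. The 10 genes described here encode their core proteins, taken as a fixed list by gene symbol: the matrix proteoglycans versican (VCAN), perlecan (HSPG2) and agrin (AGRN), the syndecans SDC1, SDC2 and SDC4, and the glypicans GPC1, GPC3, GPC4 and GPC6. They are 10 of 23686 gene symbols measured by poly(A) RNA sequencing in A427, an established human lung carcinoma line (non-small cell) whose cultures hold attached cells as well as spheres afloat in the medium. Floating, sphere-forming A427 cells (1 library) were compared with adherent A427 cells (1 library), both grown in RPMI medium with 5% fetal bovine serum. The sample labels give the genotype of both as WT, while the title of the series calls the cells CTNNB1-mutated, and neither group carries an engineered allele or an added agent according to the labels.

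Versican is a large chondroitin sulfate proteoglycan that binds hyaluronan and makes the matrix around cells looser and more hydrated. Syndecans cross the plasma membrane and act with integrins and growth factor receptors, whereas glypicans are held at the surface by a lipid anchor and tune FGF, WNT and Hedgehog ligands. Agrin and perlecan are heparan sulfate proteoglycans of basement membranes. In lung tissue these cores sit on epithelial surfaces, in basement membranes and in the interstitial matrix.

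The libraries held 27148842 gene-assigned reads in floating cells and 26384670 in adherent cells. Genes of at least 1 CPM (reads per 1000000, after scaling) in at least one library were compared, 13131 in all. With 1 library per growth form there was no replicate and no test. Each fold is given with an exact 95% interval for counting error, which leaves out how much separate cultures vary. A gene was called higher or lower where the fold was at least 2 and its interval did not hold equality. By that rule 1.28% of tested genes were called higher and 0.754% lower in floating cells. In bulk RNA, a change in the number of cells that make a transcript and a change in the RNA per cell cannot be told apart. Of 6 epithelial markers, 3 were abundant: EPCAM (582 TPM in floating and 615 TPM in adherent cells), KRT8 (581 TPM in floating and 327 TPM in adherent cells) and KRT18 (613 TPM in floating and 342 TPM in adherent cells). CDH1 was at 13.9 TPM in floating and 18.9 TPM in adherent cells, and KRT19 (22 reads in floating and 8 in adherent cells) and KRT7 (3 reads in floating and 4 in adherent cells) were near absent. KRT7 and KRT19 were below 1 CPM in both libraries and were not tested. On its few reads KRT19 was 2.56-fold higher in floating cells (interval 1.14 to 6.9). None of the 4 tested was called. Their intervals were 2 above 0, for KRT8 (1.83-fold higher) and KRT18 (1.84-fold higher), and 2 below. TPM are transcripts per 1000000, corrected for gene length. Folds come from scaled counts, so the ratio of 2 printed TPM values can differ from the fold. The median log2 ratio of all tested genes was -0.047 on TPM with 0.1 added and -0.0048 on scaled counts. Sums of TPM carry that shift.

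Versican had the largest ratio among the tested members. VCAN had 12540 reads and 96.9 TPM in floating cells, against 4368 reads and 36.1 TPM in adherent cells. The floating value was 2.77-fold higher (interval 2.68 to 2.87). Of the 9 members that reached 1 CPM, 2 were called higher, VCAN and the barely detected SDC2, and 0 were called lower. Over all tested genes the shares were 1.28% higher and 0.754% lower. SDC2 passed the filter only through the floating library, where it was higher. The remaining 7 lay within 1.5-fold, so the core genes as a group had no common direction. Their median log2 ratio of floating over adherent was -0.05, against -0.0048 for all tested genes.

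**Figure D1:**
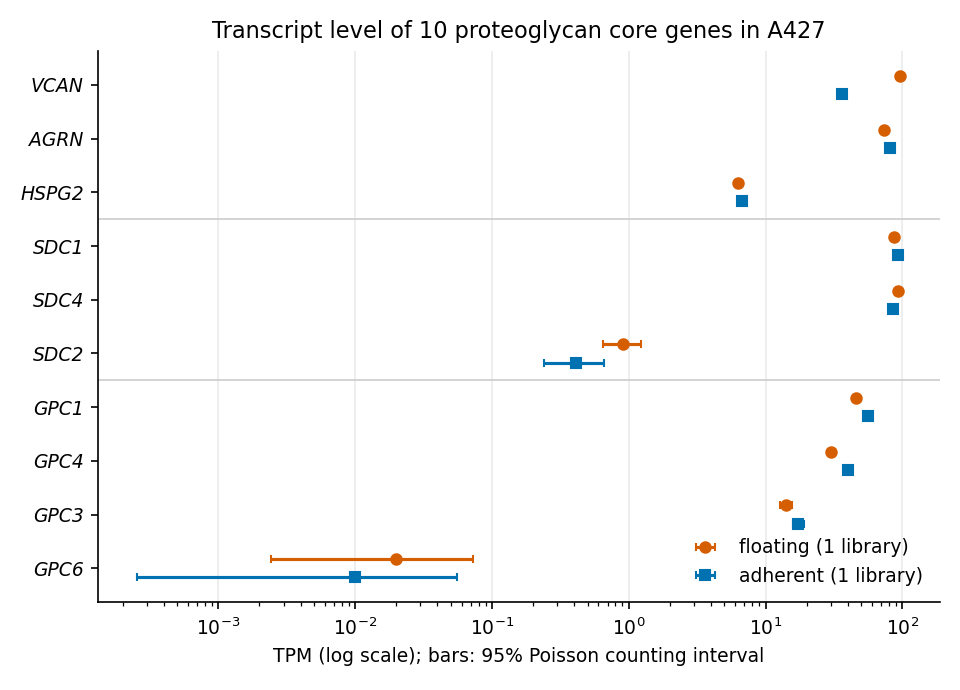
Transcript level in TPM (log axis) of the 10 core genes in floating (circles) and adherent (squares) A427 cells, 1 library each; bars are 95% Poisson counting intervals, and lines part matrix cores, syndecans and glypicans. VCAN stood at 96.9 TPM in floating and 36.1 TPM in adherent cells, while the symbols of the other members above 1 TPM lie close together.

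To show where the most changed member starts, the 250 bases before the annotated transcription start of VCAN are printed beside those of SDC4, an equally abundant member in floating cells that differed little. Both come from RefSeq on GRCh38.p14 and read 5′ to 3′ along the gene, VCAN from chr5:83471494-83471743 on the plus strand and SDC4 from chr20:45348425-45348674 on the minus strand. Capitals mark the GC box GGGCGG on either strand, the core letters bound by SP and KLF factors.
VCAN: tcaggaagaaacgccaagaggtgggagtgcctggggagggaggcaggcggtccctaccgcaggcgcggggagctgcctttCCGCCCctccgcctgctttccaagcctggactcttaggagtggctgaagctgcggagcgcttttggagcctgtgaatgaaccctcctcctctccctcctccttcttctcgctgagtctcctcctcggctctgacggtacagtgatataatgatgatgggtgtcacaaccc
SDC4: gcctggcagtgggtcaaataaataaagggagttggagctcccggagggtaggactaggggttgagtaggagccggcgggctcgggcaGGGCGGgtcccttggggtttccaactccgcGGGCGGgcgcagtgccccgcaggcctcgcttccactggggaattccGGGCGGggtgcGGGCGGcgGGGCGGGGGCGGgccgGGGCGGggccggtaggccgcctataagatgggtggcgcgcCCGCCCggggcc
The VCAN window held 1 GC box, 12 CpG pairs and 60.8% G and C, and the SDC4 window held 8 overlapping or separate GC boxes, 26 CpG pairs and 73.6% G and C. Of all 35116 such windows, 42.6% held the GC box. Windows were matched for 7 of the 10 members, with 2 windows for SDC1, and 6 of those 7 members held it, the exception being GPC6. No window was matched for SDC2, AGRN and GPC3. The letters TGANTCA (AP-1, found in 6.57% of all windows), CTTTGAT (TCF/LEF, 2.26%) and GCGTGGG (EGR1, 6.19%), searched on both strands, were in none of the 8 windows of these 7 members. A match describes the letters of the window, and no match says nothing about a factor.

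The matrix cores parted. VCAN ranked 73 among the ratios of all 13131 tested genes. Among the 2555 genes of at least 100 CPM in a library, of which 7 were called higher and 4 lower, its ratio ranked 2, behind the transcription factor gene EGR1. AGRN, the proteoglycan that clusters acetylcholine receptors at the nerve-muscle synapse, had 7073 reads and 73.9 TPM in floating cells, against 7260 reads and 81.0 TPM in adherent cells. Floating cells thus had a 1.06-fold lower level (interval 1.03 to 1.10), a difference larger than counting error and far from 2-fold. HSPG2, which encodes perlecan, the large basement membrane core, had 1199 reads and 6.34 TPM in floating cells, against 1196 reads and 6.75 TPM in adherent cells. Its log2 ratio of -0.05 had an interval that held no difference (-0.16 to 0.07). Versican transcripts were 15.3 times as abundant as perlecan transcripts in floating cells and 5.35 times in adherent cells, on the TPM scale. The log2 change of that ratio was 1.52 (counting interval 1.39 to 1.64).

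Among the syndecans, the abundant pair was nearly level. SDC1, the main syndecan of epithelia, had 3504 reads and 86.9 TPM in floating cells, against 3510 reads and 92.9 TPM in adherent cells, and the interval of its log2 ratio held no difference (-0.12 to 0.02). SDC4, the syndecan of focal adhesions, had 2996 reads and 92.8 TPM in floating cells, against 2606 reads and 86.1 TPM in adherent cells. It was 1.11-fold higher in floating cells (interval 1.05 to 1.17). The order of the pair therefore turned: SDC4 stood above SDC1 in floating cells and below it in adherent cells, with a ratio of SDC4 to SDC1 of 1.07 in floating and 0.927 in adherent cells and a log2 change of 0.20 (counting interval 0.10 to 0.31). Within the floating library the counting intervals of these 2 levels overlapped.

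SDC2, the syndecan of mesenchymal cells, was near the limit of detection. It had 40 reads and 0.91 TPM in floating cells, against 17 reads and 0.41 TPM in adherent cells. Only its floating level reached 1 CPM (1.47 CPM, against 0.646 CPM in adherent cells), so its inclusion rested on the library where it was higher. The ratio was 2.24-fold, with an interval of 1.26 to 4.28, so the size of the difference is poorly known at this depth. The call was lost on TPM (log2 ratio 0.99 with 0.1 added to each value) and with a prior count of 5 (0.98). Summed over SDC1, SDC2 and SDC4 the level was 180.6 TPM in floating and 179.4 TPM in adherent cells.

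None of the 4 glypicans among the members was called, and the 3 of them tested had ratios below 1 by small amounts. GPC4, a glypican known for its part in FGF and WNT signalling, had 1428 reads and 30.3 TPM in floating cells, against 1781 reads and 40.4 TPM in adherent cells, 1.29-fold lower in floating cells (interval 1.20 to 1.38). GPC1, a glypican raised in several carcinomas, had 2139 reads and 45.8 TPM in floating cells, against 2438 reads and 55.7 TPM in adherent cells, 1.18-fold lower in floating cells (interval 1.11 to 1.25). GPC3, an oncofetal glypican that restrains Hedgehog signalling, had 398 reads and 14.1 TPM in floating cells, against 461 reads and 17.4 TPM in adherent cells, 1.20-fold lower in floating cells (interval 1.05 to 1.37). All 3 intervals lay below no difference and none reached 2-fold. An interval below 0 on the log2 scale was found for 25.6% of all tested genes and one above 0 for 25.5%, while 48.9% had one that held 0. Of the 9 tested members 4 had an interval below 0, 3 one above 0 and 2 one that held 0. GPC6 had 2 reads in floating and 1 in adherent cells and was not compared. These 4 glypicans summed to 90.2 TPM in floating and 113.5 TPM in adherent cells. GPC2, a glypican outside the list, had 28 reads in floating and 26 in adherent cells. Its log2 ratio of 0.06 had an interval that held no difference (-0.77 to 0.89).

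**Figure D2:**
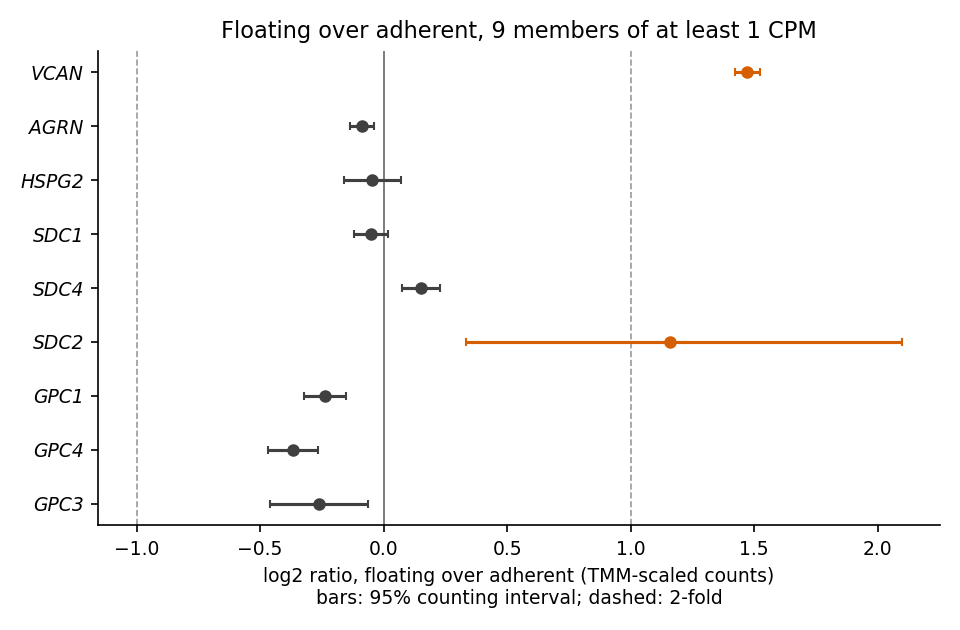
Log2 ratio of floating over adherent cells for the 9 members of at least 1 CPM, with 95% counting intervals as bars and 2-fold as dashed lines; orange marks members called higher. VCAN lies at 1.47, SDC2 at 1.16 with a wide interval, and the 3 glypicans between -0.37 and -0.24.

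The order of levels changed with versican. In floating cells it ran VCAN, SDC4, SDC1, AGRN, GPC1, GPC4, GPC3, HSPG2, SDC2 and GPC6, from highest to lowest TPM. VCAN ranked 1 of the 10 members in floating cells and 6 in adherent cells. There the order ran SDC1, SDC4, AGRN, GPC1, GPC4, VCAN, GPC3, HSPG2, SDC2 and GPC6. The counting intervals of neighbours overlapped for VCAN with SDC4 and SDC4 with SDC1 in floating cells, and for SDC4 with AGRN in adherent cells, and those of the other neighbours did not. VCAN made up 21.6% of the summed TPM of the 10 members in floating cells and 8.67% in adherent cells. Without VCAN the members summed to 351 TPM in floating and 381 TPM in adherent cells, and among all genes VCAN ranked 1774 in floating cells and 4763 in adherent cells by TPM.

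**Figure D3:**
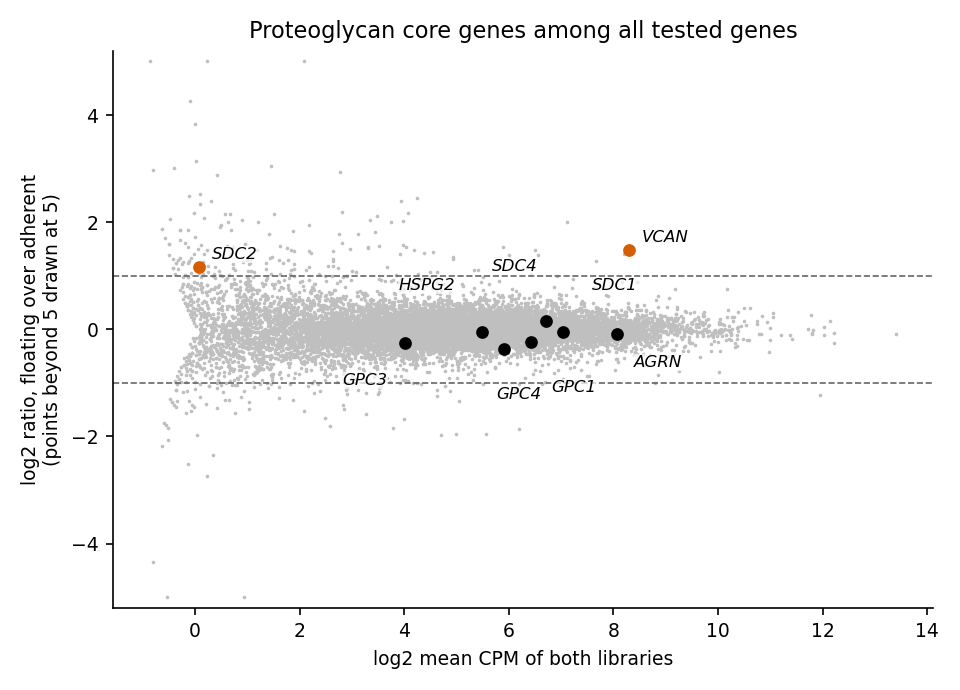
Log2 ratio of floating over adherent cells against log2 mean CPM for all 13131 tested genes (grey), with the 9 tested members in black, or in orange where called higher; dashed lines mark 2-fold. VCAN at 1.47 stands outside the cloud of genes of similar abundance, and SDC2 lies at the low-count edge.

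Versican is made in splice forms that differ in the glycosaminoglycan-bearing region, through the use or skipping of 2 large exons, and the tables give no counts by form. The mean transcript length that the authors' estimation assigned to a gene can be read from its reads per TPM. Calibrated on 397 genes with a single GENCODE v29 transcript, that length was 10120 bases for VCAN in floating cells and 10092 in adherent cells. In the floating library, estimates of the calibration genes ran at a median of 1.07 times their annotated length (quartiles 1.04 and 1.12). The VCAN estimate was 1.07 times the 9455-base transcript, which has the 5262-base exon and lacks the 2961-base exon, in both libraries. It was 0.802 times the 12625-base transcript with both exons in floating cells and 0.799 times in adherent cells. The factor of 1.07 need not hold for long transcripts. For HSPG2 the floating estimate was 14585 bases, against a longest annotated transcript of 14327. For AGRN it was 7590 bases, against 7394. A mixture of forms can also give the same mean, and the authors' own annotation was not used here. The estimate therefore does not identify a form. Relative to the median gene, the length for VCAN differed between the libraries by a factor of 1.003, within the central 95% of 10384 genes (0.980 to 1.01). The corresponding factors for HSPG2, AGRN, SDC1, SDC4, GPC1, GPC3 and GPC4 lay between 0.999 and 1.001.

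Genes of at least 10 CPM whose pair of levels lay nearest to that of VCAN, by distance on the log2(TPM + 0.1) scale over the 2 libraries, were MOSPD1, ITGA2, COTL1, PAK1IP1 and SPRR2D. ITGA2, the collagen-binding integrin alpha 2 subunit, was at 113 TPM in floating and 43.9 TPM in adherent cells (2.66-fold, interval 2.57 to 2.75). MOSPD1, which encodes a membrane protein, was at 87.5 TPM in floating and 34.4 TPM in adherent cells (2.62-fold, interval 2.43 to 2.83). The distances were 0.16 for MOSPD1 and 0.36 for ITGA2, and 0.49 to 0.51 for the other 3, of which SPRR2D has near-identical paralogs that make its count uncertain. Likeness over 2 libraries is a likeness of one ratio and one level.

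The remaining proteoglycan cores were mostly absent from A427. Of 27 further core genes, 8 reached 1 CPM and 0 were called in either direction, with a median log2 ratio of -0.16, 1 interval above 0 and 2 below. Over all tested genes 25.5% of intervals lay above 0 and 25.6% below, which is the background for this and the later groups. The small leucine-rich proteoglycans DCN, BGN and LUM, and aggrecan (ACAN), had at most 13 reads in either library. The most abundant was PTPRZ1, a receptor phosphatase that carries chondroitin sulfate, at 93.8 TPM in floating and 73.3 TPM in adherent cells (1.31-fold higher in floating cells, interval 1.26 to 1.35). SDC3, the neural syndecan, was at 45.3 TPM in floating and 49.5 TPM in adherent cells (1.06-fold lower in floating cells, interval 1.01 to 1.11). DCN, BGN, LUM and ACAN were picked out after their values were seen.

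Genes that build the sugar chains differed little. Every core protein first receives a linker sugar chain, and none of the 6 linker genes measured was called (median log2 ratio 0.08, with 2 intervals below 0 and 0 above). The linker kinase FAM20B was at 60.3 TPM in floating and 71.0 TPM in adherent cells, and the xylosyltransferase XYLT2 at 31.0 TPM in floating and 30.4 TPM in adherent cells. The median of 13 tested heparan sulfate enzymes was -0.15, with 6 intervals below 0 and 3 above. Against 0.754% of all tested genes called lower and 1.28% higher, 1 of the 13 was called lower and 0 higher. That gene was NDST4, an N-deacetylase and N-sulfotransferase, with 198 reads and 4.70 TPM in floating cells, against 412 reads and 10.4 TPM in adherent cells (2.15-fold lower in floating cells, interval 1.81 to 2.56). The more abundant NDST1 was at 21.4 TPM in floating and 24.1 TPM in adherent cells, and the chain-starting EXTL3 at 43.4 TPM in floating and 39.4 TPM in adherent cells. Chondroitin and dermatan sulfate enzymes, which build the chains of versican, held 0 called genes of 15 tested, with a median of -0.0086. DSE, the dermatan sulfate epimerase, was at 81.4 TPM in floating and 84.2 TPM in adherent cells. CSGALNACT2, which starts chondroitin chains, was at 35.9 TPM in floating and 36.6 TPM in adherent cells, and the intervals of both ratios held no difference. Of the 15 intervals in that group 5 lay below 0 and 0 above. Of 11 genes for sugar nucleotide and sulfate supply none was called (median -0.06, with 4 intervals below 0 and 0 above), with UGP2 at 161 TPM in floating and 159 TPM in adherent cells, and the sulfate transporter SLC26A2 1.17-fold lower in floating cells (interval 1.12 to 1.22).

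Shedding and degradation genes held 1 call. Of 11 tested genes of shedding and extracellular remodelling, ADAMTS5, a protease that cleaves aggrecan and versican, was called lower, with 23 reads in floating and 67 in adherent cells (2.97-fold, interval 1.85 to 5.07), and 0 were called higher (median -0.18, with 6 intervals below 0 and 2 above). Over all tested genes 0.754% were called lower and 1.28% higher. ADAMTS5 reached 1 CPM only in adherent cells (2.55 CPM, against 0.845 CPM in floating cells), the library where it was higher. The syndecan sheddase ADAM17 was at 107 TPM in floating and 105 TPM in adherent cells. Its relative ADAM10 was at 55.2 TPM in floating and 71.2 TPM in adherent cells, 1.25-fold lower in floating cells (interval 1.19 to 1.31). None of 12 lysosomal genes for glycosaminoglycan breakdown was called (median -0.09), with 6 intervals below 0 and 1 above.

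Hyaluronan is the chain that versican binds. Of 11 tested genes of hyaluronan metabolism and versican binding, 2 were called higher and 0 lower, with a median of -0.03, 4 intervals above 0 and 1 below. The shares called over all tested genes were 1.28% higher and 0.754% lower. HAS3, a hyaluronan synthase, had 221 reads and 4.31 TPM in floating cells, against 94 reads and 1.86 TPM in adherent cells (2.27-fold, interval 1.78 to 2.92). HYAL1, a lysosomal hyaluronidase, had 78 reads and 3.62 TPM in floating cells, against 32 reads and 1.44 TPM in adherent cells (2.33-fold, interval 1.54 to 3.68). HMMR, a hyaluronan-binding protein that is also a mitotic gene, was at 136 TPM in floating and 100.1 TPM in adherent cells. HYAL2 was at 51.2 TPM in floating and 55.7 TPM in adherent cells. HAS2 (360 reads in floating and 355 in adherent cells) did not differ beyond counting error, and HAPLN1, the link protein that locks versican onto hyaluronan, had 11 reads in floating and 12 in adherent cells. HAS2 and HAPLN1 were named after their values were seen.

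Partners of the other cores went both ways. Of 10 tested partners of syndecan tails none was called (median -0.07, with 4 intervals above 0 and 5 below), with ezrin (EZR) at 449.7 TPM in floating and 401 TPM in adherent cells and cortactin (CTTN) at 248 TPM in floating and 281 TPM in adherent cells. Of 10 tested partners of agrin and perlecan, 1 was called higher and 2 lower (median -0.13, with 2 intervals above 0 and 6 below). Among all tested genes 1.28% were called higher and 0.754% lower. The higher gene was ECM1, a secreted protein that binds perlecan, with 69 reads in floating and 18 in adherent cells (3.63-fold, interval 2.18 to 6.62). ECM1 reached 1 CPM only in floating cells (2.53 CPM, against 0.684 CPM in adherent cells), the library where it was higher. The lower ones were the laminin chain LAMA2, with 496 reads in floating and 1065 in adherent cells (2.22-fold, interval 1.995 to 2.48), and nidogen-1 (NID1), with 816 reads in floating and 1593 in adherent cells (2.02-fold, interval 1.86 to 2.20). The abundant laminin chains LAMC1 and LAMA5 were 1.04-fold and 1.14-fold lower in floating cells.

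Of 20 tested growth factors and receptors that bind heparan sulfate or act with it, 2 were called higher and 0 lower, with a median of 0.06. Among all tested genes 1.28% were called higher and 0.754% lower. The chemokine IL8 had 157 reads in floating and 42 in adherent cells (3.58-fold, interval 2.56 to 5.21), and PDGFB, a platelet-derived growth factor chain, 162 reads in floating and 72 in adherent cells (2.17-fold, interval 1.64 to 2.91). Of the 20 intervals 9 lay above 0 and 5 below. The uncalled members of highest mean CPM were the EGF-like ligand AREG, at 1861 TPM in floating and 1537 TPM in adherent cells, and the HGF receptor MET, at 94.96 TPM in floating and 84.8 TPM in adherent cells.

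**Figure D4:**
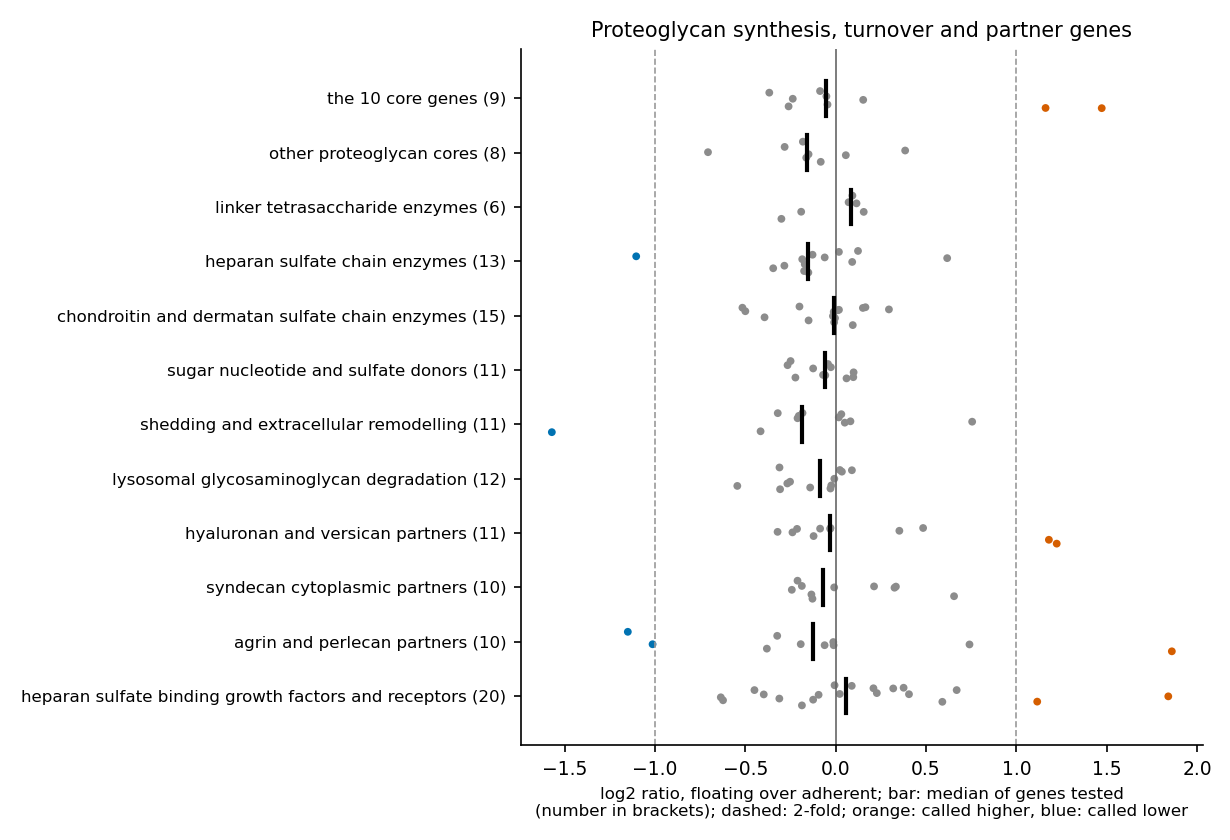
Log2 ratios of floating over adherent cells for the tested genes of 12 groups around the proteoglycan cores, with the median of each as a black bar and 2-fold as dashed lines; orange and blue mark genes called higher and lower. Medians lie between -0.18 and 0.08, and VCAN at 1.47 is farther from 0 than any gene of the chain-building groups. In other groups ECM1 at 1.86, IL8 at 1.84 and ADAMTS5 at -1.57 are farther from 0 than VCAN.

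Versican is also a product of fibroblasts. Of 10 fibroblast markers 6 were below 1 CPM in both libraries, namely DCN, LUM, COL1A2, PDGFRA, PDGFRB and THY1, with at most 13 reads each. The summed level of the 10 markers was 102 TPM in floating and 162 TPM in adherent cells. None of the 4 tested markers was called, though COL3A1 fell just short of the 2-fold rule (1.97-fold lower in floating cells, interval 1.89 to 2.05). COL3A1 was at 49.6 TPM in floating and 100.9 TPM in adherent cells, FAP at 16.9 TPM in floating and 21.9 TPM in adherent cells, and COL1A1 at 7.98 TPM in floating and 13.9 TPM in adherent cells, each with an interval below 0. ACTA2 was at 26.7 TPM in floating and 24.4 TPM in adherent cells, with an interval above 0. Endothelial markers summed to 0.47 TPM in floating and 0.17 TPM in adherent cells, with VWF called higher on 44 reads in floating and 14 in adherent cells. VWF reached 1 CPM only in floating cells (1.62 CPM, against 0.532 CPM in adherent cells), the library where it was higher. Blood cell markers summed to 33.6 TPM in floating and 19.9 TPM in adherent cells, nearly all of it CD68, at 31.5 TPM in floating and 16.9 TPM in adherent cells, with PTPRC at 1.95 TPM in floating and 2.84 TPM in adherent cells. Both libraries were made from A427, an established line, so these values describe transcripts of A427 cultures and do not count other cell types. A link between these markers and the versican difference was not tested.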

How the data were processed

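Poly(A) RNA of floating and adherent A427 cells was sequenced, 1 library each. Per the labels' protocols, DNase-treated total RNA went into KAPA mRNA HyperPrep libraries. The submitters' processing notes name RSEM 1.3.3, STAR 2.5.3a, FastQC 0.11.1 and the build hg19. Which annotation was used, and whether strand was, is not given in any source used here. The authors deposited estimated counts per gene without normalization, in which every value of the 10 members was whole, and TPM, scaled by the authors so that each column sums to 1000000.

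Estimated counts were rounded. Libraries were scaled by TMM in edgeR 4.0.16 (R 4.3.3), log2 ratios used a prior count of 0.5, and intervals are exact Clopper-Pearson, conditional on the summed reads (scipy 1.17.1, Python 3.11.15). Reads are not independent molecules, so intervals cover counting error only. The interval of a change in the ratio of 2 members is a normal approximation on log reads. A depth of 27.2 reads per CPM in floating and 26.3 in adherent cells sets the precision. No count test was run, since there is 1 library per group. The calculation was tested on simulated data that held counting error alone, without variation between cultures. Of 50 genes set at each fold, 0 were called at 1.5-fold, 28 at 2-fold and 50 at 3-fold. Of 12877 unchanged genes 6 were called.

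The members and gene lists were chosen with earlier results of these data known. Besides the members, the text names per list up to 4 called genes by the interval bound nearest to 0 and 2 uncalled ones of highest mean CPM, and the 5 genes nearest to VCAN. Some genes that this rule takes are left out of the text. Of the list symbols, 1 linker gene was not matched, and the 22 symbols of the shedding and remodelling list gave 21 measured genes. The alternatives were scaling by the upper quartile, by library totals or by DESeq2 1.42.0 size factors, TPM with 0.1 or 1 added, a prior count of 5, no filter, 5 CPM, thresholds of 1.5-fold and 4-fold, no interval and, added after the data were seen, removal of a lowess trend over transcript length. Promoters came from RefSeq on GRCh38.p14.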

Additional observations from a re-analysis of the deposited data

How the results depend on the processing

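With 1 library per group there was no replicate to leave out. No paired analysis was possible because each group has a single library. VCAN kept its call as higher in floating cells under all alternatives but the 4-fold threshold, with log2 ratios from 1.40 to 1.55, the upper end with the length trend removed. Members called higher numbered 1 on TPM with 0.1 or 1 added, with a prior count of 5 and with at least 5 CPM, VCAN alone in each case, and 0 at 4-fold. SDC2 lost its call under these settings, with log2 ratios of 0.44 to 1.19 over its alternatives. No member was called lower under any alternative. The ratios of GPC1, GPC3 and GPC4 stayed below 0 and that of SDC4 above it, while that of HSPG2 ran from -0.09 to 0.05, the upper end with the length trend removed, and that of AGRN from -0.13 to -0.03, where its interval held 0 with the length trend removed. The median of the shedding and remodelling genes was 0.02 and that of the growth factors and receptors -0.0063 without a filter, and that of the chondroitin and dermatan sulfate enzymes 0.05 with the length trend removed and 0.0005 with DESeq2 size factors. Of the 13131 tested genes, 67 were higher and 37 lower on TPM with 1 added, 426 and 381 at 1.5-fold, and 32 and 8 at 4-fold. Without a filter, 286 of all 23686 genes were higher and 164 lower. Among the fewer genes that reached 5 CPM, 64 were higher and 41 lower. Depth limits statements on SDC2 and GPC6.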
